A study of Mus musculus with 2 samples.

Results

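Trpv1, Trpa1, Trpm8, Trpm3, Piezo1, Piezo2, P2rx3, Mrgprd, Asic1 and Asic3 encode channels and receptors with which primary sensory neurons detect heat, cold, irritants, touch, extracellular ATP and acid. These 10 genes were chosen by name among the 32285 genes of the count tables, and each of them had a row of its own. No measured value entered the rule, but earlier results of these data were known when the genes were chosen. Their transcripts were followed in dissociated dorsal root ganglia (DRGs) of the levels L4 and L5, from naive female C57BL/6 mice aged 3 months. Live cells were sorted by flow cytometry and their polyadenylated RNA was captured in droplets and counted from the 3′ end. The study deposited 2 such samples, replicates 1 and 2, both of the same genotype, age and treatment, so that 1 group was measured and no condition could be compared. Comparisons were made between cell types within the samples, and p-values measure only the spread between the profiles of these 2 samples. The number of mice in each sample is not given in the sources used here.

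The cell bodies of sensory neurons lie in the DRG, each wrapped by satellite glial cells (SGCs), among Schwann cells, vessels, connective tissue and macrophages. In the sensory ending, transient receptor potential (TRP) channels open to temperature or chemicals, Piezo channels open when the membrane is stretched, P2X channels open to ATP and acid-sensing ion channels open to protons, while receptors of the Mrgpr family signal through G proteins. The resulting depolarization sets off action potentials, and neurons that carry different combinations of these proteins respond to different stimuli. The transcripts are made in the cell body, which is what a DRG dissociation captures.

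Replicate 1 held 119101743 unique molecular identifiers (UMIs, 1 per captured transcript) and replicate 2 held 128668771, of which 9173 and 9408 barcodes were called as cells. The replicates differed by more than sampling noise, with a ratio of chi-square to its degrees of freedom of 14.6, and were counted as 2 samples. Among called cells the libraries shared 140 barcodes, and among neurons they shared 0. A barcode was taken as a neuron if it held at least 20000 UMIs and at least 40 per 10000 of these came from Tubb3, Snap25, Uchl1, Stmn2, Prph and Nefl, which encode structural and release proteins of neurons. This gave 50 neurons in replicate 1 and 43 in replicate 2, or 0.641% of the cells with a type, with medians of 114933.5 and 124487 UMIs. Tubb3 stood at 1708 and 1698 counts per 1000000 UMIs (CPM) in the neurons and at 6.37 and 10.5 CPM in the SGCs. Fabp7, which marks SGCs, stood at 9337 and 9789 CPM in the SGCs, at 463 and 709 CPM in the neurons and at 8227 and 7776 CPM in empty droplets, so the neuron droplets held some glial RNA. The other cells were 4286 and 4077 SGCs, 1110 and 1258 myelinating Schwann cells (MSCs), 435 and 528 non-myelinating Schwann cells (NMSCs), 174 and 192 endothelial cells, 509 and 689 fibroblasts, 383 and 307 mural cells, and 250 and 226 macrophages. Each of these types held the highest level of its own defining marker, for example Pecam1 at 692 and 796 CPM in endothelial cells and C1qa at 2695 and 2278 CPM in macrophages.

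Promoters were read for the members with an entry in the RefSeq promoter table of GRCm38.p6. The 250 bases before the start of 4 genes are shown. They were chosen after the levels were seen, to set genes detected mainly in neurons beside genes detected in other types. Trpv1 and Mrgprd were detected mainly in neurons, Trpm3 in neurons and glia, and Piezo1 in endothelial cells. Each sequence runs 5′ to 3′ on the strand of its gene, and capitals mark the dinucleotide CG, which vertebrate genomes have mostly lost outside unmethylated promoters. The windows lie at chr11:73233899-73234148 on the plus strand for Trpv1, chr7:145314585-145314834 on the plus strand for Mrgprd, chr19:22138796-22139045 on the plus strand for Trpm3 and chr8:122551330-122551579 on the minus strand for Piezo1.
Trpv1: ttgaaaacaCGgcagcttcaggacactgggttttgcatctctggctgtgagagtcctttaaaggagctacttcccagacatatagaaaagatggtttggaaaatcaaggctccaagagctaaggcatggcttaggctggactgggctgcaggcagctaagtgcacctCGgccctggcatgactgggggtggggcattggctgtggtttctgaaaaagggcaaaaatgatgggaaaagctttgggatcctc
Mrgprd: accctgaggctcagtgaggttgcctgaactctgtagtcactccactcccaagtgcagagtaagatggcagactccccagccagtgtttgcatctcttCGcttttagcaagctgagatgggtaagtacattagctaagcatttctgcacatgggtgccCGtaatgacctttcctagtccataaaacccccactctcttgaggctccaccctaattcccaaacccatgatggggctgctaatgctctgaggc
Trpm3: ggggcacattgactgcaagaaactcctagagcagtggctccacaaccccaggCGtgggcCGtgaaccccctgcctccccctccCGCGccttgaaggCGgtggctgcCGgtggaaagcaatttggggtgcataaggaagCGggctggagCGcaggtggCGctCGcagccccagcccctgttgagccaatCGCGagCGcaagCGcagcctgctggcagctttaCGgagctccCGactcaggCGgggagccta
Piezo1: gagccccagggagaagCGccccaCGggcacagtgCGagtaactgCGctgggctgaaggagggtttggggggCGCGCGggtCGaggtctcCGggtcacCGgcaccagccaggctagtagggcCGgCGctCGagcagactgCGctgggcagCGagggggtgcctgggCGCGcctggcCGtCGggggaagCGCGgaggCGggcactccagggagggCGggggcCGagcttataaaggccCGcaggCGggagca
The windows of Trpv1 and Mrgprd each held 2 CG, a number that 81.2% of 32851 promoter windows of the same length reached. The window of Trpm3 held 17 CG, reached by 23.5% of the windows, and that of Piezo1 held 26 CG, reached by 9.59%, against a median of 6 CG. A second start of Trpm3 held 9 CG, the windows of Asic1 and Asic3 held 5 CG each and that of Trpm8 held 1 CG. The RefSeq starts of Asic1 and Trpm8 lie 21856 and 29074 bases from the GENCODE starts of these genes. Among the 4 windows shown, those of Trpv1 and Mrgprd were poor in CG and those of Trpm3 and Piezo1 were rich in it. This is a description of 4 chosen windows and no test. CG reads the same on both strands, so no strand was chosen in the count.

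Across cell types, the 10 genes fell into distinct patterns. Trpv1, Trpa1, Trpm8, P2rx3, Mrgprd, Asic1 and Asic3 were highest in neurons. For these genes, neurons held from 65.6% (Asic1) to 96.4% (Trpm8) of the UMIs in typed cells of a replicate. The shares leave out an unnamed cluster of 50 cells, which held 149 and 256 Trpm8 UMIs and 35 and 266 Trpv1 UMIs. Piezo2 stood high in neurons and fibroblasts alike, Trpm3 in SGCs, MSCs and neurons, and Piezo1 in endothelial cells. Against the mean of the 7 other types, 9 of the 10 members were higher in neurons and 1, Piezo1, was lower. The test was edgeR's quasi-likelihood test with Benjamini-Hochberg adjustment over all genes. The mean of types, here and below, was taken over log2 levels. Of the 18155 genes tested, 35.4% were called higher in neurons and 31.2% lower. The median log2 fold change was 6.93 over the members and −0.04 over all genes tested. Trpa1, Mrgprd, Asic1 and Asic3 were at 0 UMIs in at least 1 type, where the fit sets the size of a change. The median of the members is therefore not an exact size. All 10 members passed the filter on low counts, but Trpa1 and Mrgprd passed it only through the neuron profiles. Their calls of higher in neurons thus carry no independent weight.

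**Figure D1:**
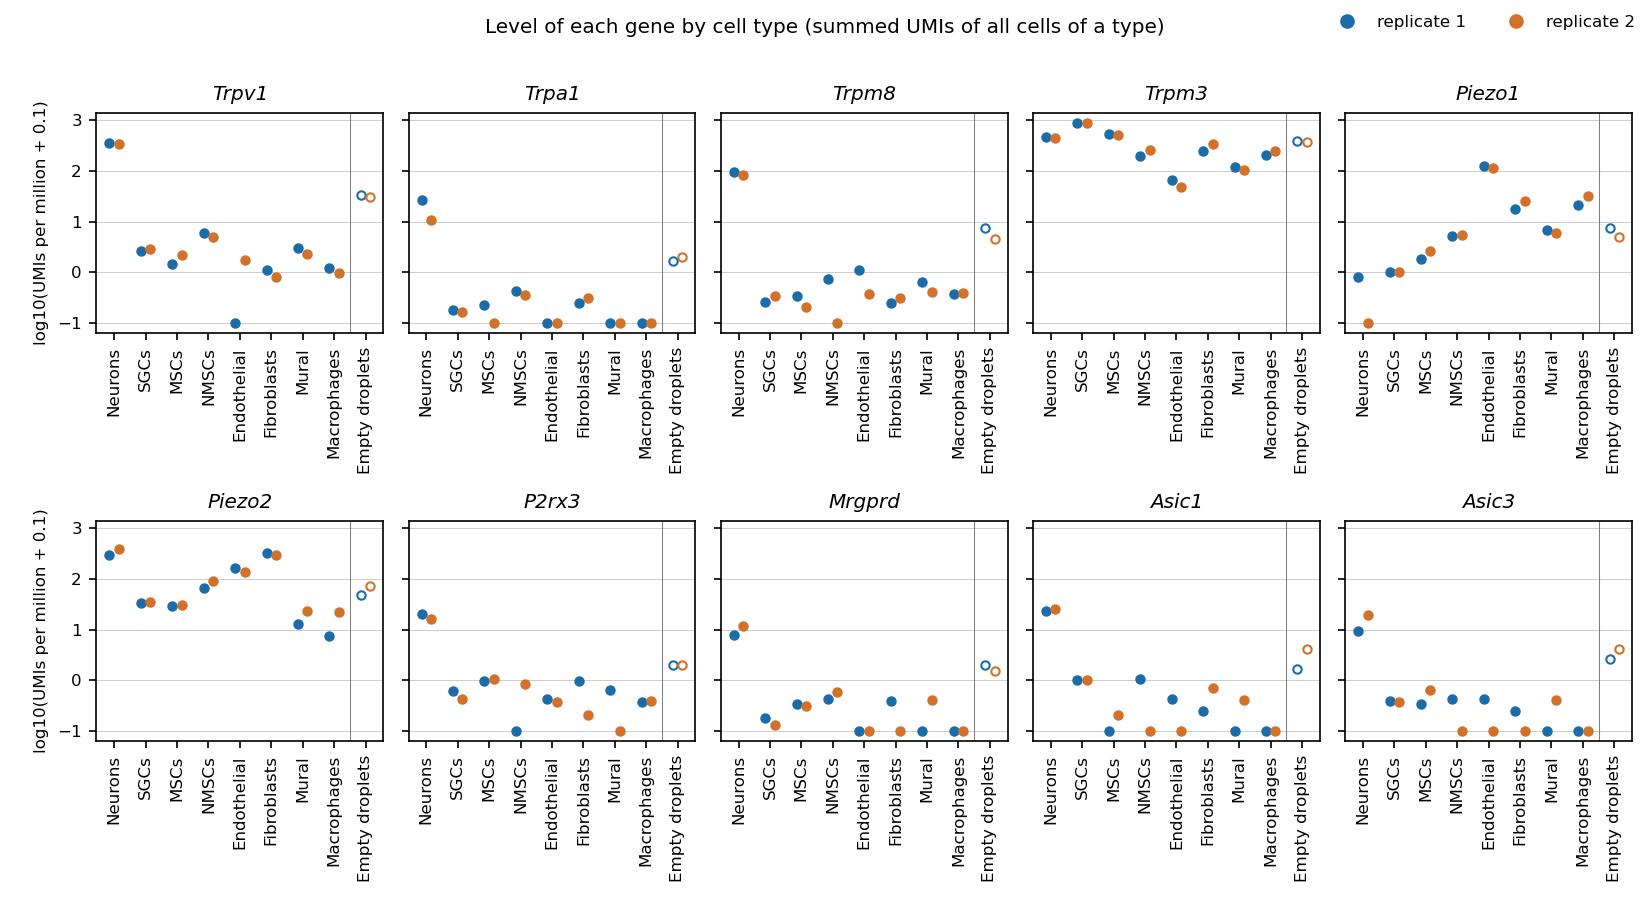
Level of each of the 10 genes, as log10(CPM + 0.1), in each cell type of replicates 1 and 2, with empty droplets as open circles. Trpv1 stood at 363 and 344 CPM in neurons against at most 5.72 CPM in any other type, while Trpm3 was highest in SGCs and Piezo1 in endothelial cells.

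Trpv1, the capsaicin receptor and a detector of noxious heat (chr11:73234292-73261242, plus strand, GRCm38), stood at 363 CPM in the neurons of replicate 1 and at 344 CPM in those of replicate 2. The other types held between 0 and 5.72 CPM, so that no value of another type reached those of the neurons. The log2 fold change was 7.61 ± 0.10 (SE; adjusted p = 3.74e-18, edgeR), and summed over all other cells the level in neurons was 149-fold higher. Neurons, 0.641% of the typed cells, held 90.7% and 87.9% of the Trpv1 UMIs of typed cells. Per neuron the lowest, median and highest counts were 0, 28 and 201 UMIs in replicate 1 and 0, 27 and 193 UMIs in replicate 2. Trpv1 was thus found at many transcripts in a typical neuron and was not detected in a minority. Empty droplets held 33.9 and 30.6 CPM, from which 9.61 of 2095 and 8.93 of 1729 neuronal UMIs would be expected.

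Trpa1, the receptor of pungent electrophiles such as mustard oil (chr1:14872648-14918862, minus strand), stood at 26.5 and 10.6 CPM in neurons, which corresponds to 153 and 53 UMIs in 17 of 50 and 10 of 43 neurons. The highest neuron held 22 UMIs in replicate 1 and 16 UMIs in replicate 2. No Trpa1 UMI was found in endothelial cells, mural cells or macrophages, and against a floor of 3 UMIs over both libraries the level in neurons was at least 42.8-fold, 44.5-fold and 45.1-fold higher than in these types, respectively. The adjusted p was 2.13e-09 (edgeR), for a gene that passed the filter on low counts only through the neurons. All other cells together held a level 242-fold lower. Trpm8, the cold and menthol receptor (chr1:88277661-88389293, plus strand), stood at 96.9 and 84.8 CPM in neurons and at no more than 0.989 CPM in any other type, with a log2 fold change of 8.26 ± 0.16 (SE; adjusted p = 2.75e-16, edgeR). It was detected in 21 of 50 and 14 of 43 neurons, but few held it at many UMIs. The 5 highest held 82.1% of the Trpm8 UMIs of replicate 1 and 94.1% of those of replicate 2. The highest neuron held 193 and 147 UMIs. The neuronal mean of Trpm8 therefore rested on a handful of cells, unlike that of Trpv1, whose 5 highest neurons held 39% and 42.3% of its UMIs.

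Trpm3, a channel opened by heat and by the steroid pregnenolone sulfate, stood at 476 and 443 CPM in neurons and was found in 48 of 50 and 42 of 43 of them, with a median of 47.5 and 38 UMIs per neuron. SGCs stood higher, at 893 and 888 CPM, as did MSCs, at 547 and 522 CPM. The neurons were nevertheless above the equally weighted mean of the log2 levels of the 7 types (log2 fold change 0.87 ± 0.11, SE; adjusted p = 3.93e-06, edgeR), because fibroblasts, NMSCs, macrophages, mural and endothelial cells held less. With all other cells of a sample summed into 1 profile, in which SGCs prevail, the direction turned, to −0.67 (adjusted p = 0.000491, edgeR), and the level in the pooled other cells was 1.51-fold that of neurons. Neurons held only 4.05% and 3.21% of the Trpm3 UMIs of typed cells. Empty droplets carried 392 and 378 CPM of Trpm3, which would account for 111 of 2744 and 110 of 2227 UMIs in neurons. In the neurons with Fabp7 below the median, the log2 fold change was 0.72 (adjusted p = 5.72e-05, edgeR).

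Piezo2, the mechanically gated channel of touch and proprioception, stood at 294 and 385 CPM in neurons and at 333 and 298 CPM in fibroblasts, and the values of these types overlapped. Endothelial cells came next, with 163 and 136 CPM. Set against the mean log2 level of the others, neurons were higher by a log2 fold change of 2.66 ± 0.14 (SE; adjusted p = 4.89e-11, edgeR). Within neurons Piezo2 was uneven, with a median of 1 and 2 UMIs and a highest count of 390 and 591 UMIs, and the 5 highest neurons held 75.5% and 77.1% of its UMIs. Piezo1, the related channel best known from vessels and red cells (chr8:122481698-122551329, minus strand), showed the opposite pattern. It gave 4 UMIs in 2 of 50 neurons and 0 in 43 neurons, where a count of 0 allows a level of up to 0.597 CPM. The log2 fold change against the other types was −4.60 ± 0.49 (SE; adjusted p = 4.17e-07, edgeR). From empty droplets 2.1 and 1.42 Piezo1 UMIs would be expected in the neurons, so the few UMIs seen were near that level.

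P2rx3, the ATP-gated channel subunit of small nociceptors (chr2:84998583-85037462, minus strand), stood at 19.9 and 16.3 CPM in neurons, against at most 0.958 CPM in any other type (log2 fold change 5.42 ± 0.32, SE; adjusted p = 2.77e-10, edgeR). It was detected in 21 of 50 and 15 of 43 neurons, with up to 23 and 25 UMIs. Mrgprd, a receptor of β-alanine that marks a class of skin nociceptors (chr7:145314835-145324086, plus strand), stood at 7.80 and 11.8 CPM, all of it from 2 neurons in each replicate. Its level was at least 21.6-fold above that of endothelial cells and at least 22.7-fold above that of macrophages, where it was at 0. The adjusted p was 6.03e-09 (edgeR), again for a gene that passed the filter only through the neurons. Asic1 (chr15:99670368-99701130, plus strand) and Asic3 (chr5:24413392-24417835, plus strand) encode proton-gated channel subunits, Asic3 being the one most tied to acid-evoked muscle pain. Asic1 stood at 22.9 and 25.5 CPM in neurons and was detected in 29 of 50 and 27 of 43, with up to 31 and 32 UMIs (adjusted p = 6.25e-11, edgeR). Asic3 stood at 9.36 and 19.3 CPM and was detected in 14 of 50 and 8 of 43 neurons (adjusted p = 1.28e-09, edgeR). A single neuron of replicate 2 held 50 UMIs, or 51.5% of the Asic3 UMIs of its replicate. In macrophages both were at 0, which places neurons at least 56.9-fold higher for Asic1 and at least 33.0-fold higher for Asic3.

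The share of neurons with a transcript did not follow the summed level, and Asic1, for example, was detected in more neurons than Trpm8. Over the 93 neurons, Trpm3 was detected in 96.8%, Trpv1 in 81.7%, Asic1 in 60.2%, Piezo2 in 58.1%, P2rx3 in 38.7%, Trpm8 in 37.6%, Trpa1 in 29.0%, Asic3 in 23.7%, Mrgprd in 4.3% and Piezo1 in 2.15%. Exact 95% binomial intervals, which cover counting error only, ran from 72.35% to 88.98% for Trpv1, from 27.79% to 48.28% for Trpm8 and from 20.08% to 39.36% for Trpa1. After each neuron was thinned to 20000 UMIs, with 0 neurons left out, the shares were 91.4% for Trpm3, 75.3% for Trpv1, 40.9% for Piezo2, 32.3% for Asic1, 23.7% for Trpm8, 20.4% for Trpa1, 11.8% for both P2rx3 and Asic3 and still 4.3% for Mrgprd. The shares of Trpm3, Trpv1 and Mrgprd thus moved little with depth, and those of P2rx3 and Asic1 moved strongly. In SGCs, whose median depth was 13695.5 and 14584 UMIs, Trpv1 was detected in 3.45% and 4.10% of cells, Asic1 in 1.26% and 1.37%, P2rx3 in 0.63% and 0.491%, Asic3 in 0.42% and 0.417%, Trpm8 in 0.233% and 0.343%, and Trpa1 in 0.117% and 0.0981%. At a common depth of 5000 UMIs, which left out 38 SGCs in each replicate and 0 neurons, Trpv1 was detected in 70.0% and 55.8% of neurons against 1.48% and 1.34% of SGCs, and Trpa1 in 10.0% and 6.98% of neurons against 0% and 0.0248%. The neuronal shares of both genes were therefore far above those of SGCs at matched depth.

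A neuron held UMIs of between 2 and 8 of the 10 members, with a median of 4 and a mean of 4.32. The combination of 3 of them divided most neurons. Taking Trpv1, Trpm8 and Piezo2 together, the highest of the 3 was Trpv1 in 63 neurons, Piezo2 in 18 and Trpm8 in 11, and 1 neuron held none. The highest gene made up a median of 92.6% of the UMIs of the 3 genes where it was Trpv1, 95.3% where it was Trpm8 and 100% where it was Piezo2. In presence alone they were less separate, since 14 neurons held at least 1 UMI of all 3, 28 held Trpv1 and Piezo2 without Trpm8, 16 held Trpv1 and Trpm8 without Piezo2, and 18 held Trpv1 alone. The highest gene reached at least 90% in 36 of the 63 neurons for Trpv1, 7 of the 11 for Trpm8 and 13 of the 18 for Piezo2. A neuron with a high level of 1 of the 3 thus often held the others at low counts or not at all.

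**Figure D2:**
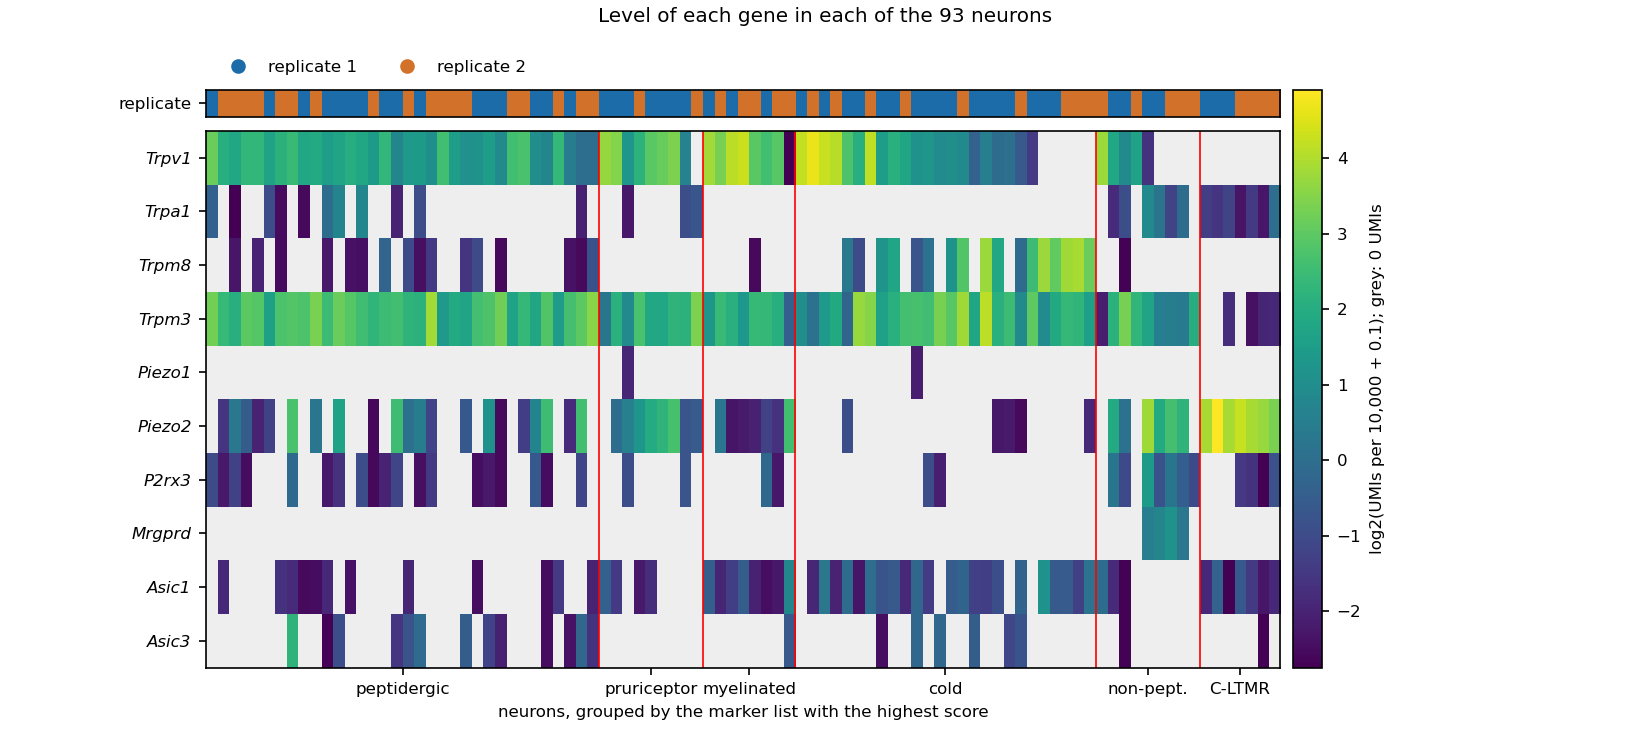
Level of each member in each of the 93 neurons, as log2(UMIs per 10,000 + 0.1) with grey for 0 UMIs, with neurons grouped by the marker list that scored highest. Trpm3 runs through all groups but fades in the 7 neurons of the C-LTMR list, where Piezo2 is strongest and Trpv1 is at 0.

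The neurons were described further by 6 marker lists that hold none of the members, and each neuron was placed with the list that scored highest in it. These are ranges of a score and not cell types, and between 0 and 5 neurons of each list lay within 0.25 of the next list. The list of peptidergic nociceptors (Calca, Calcb, Tac1 and Adcyap1 among them) scored highest in 34 neurons, and all 34 held Trpv1, at 12 to 106 UMIs, and Trpm3, at 10 to 211 UMIs. Of these 34 neurons, 21 held Piezo2, 19 held P2rx3, 13 held Asic3 and 11 held Trpa1, and Trpm8 did not exceed 6 UMIs. In the 20 neurons with at least 1000 UMIs of Calca, which encodes the neuropeptide CGRP, Trpv1 ranged from 12 to 70 UMIs and Trpm3 from 42 to 211 UMIs. These cutoffs on counts, and those that follow, were chosen after the values were seen. Neurons rich in CGRP transcripts thus carried Trpv1 and Trpm3 together in every case and differed among themselves in P2rx3, Asic3 and Trpa1.

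The list of C-fibre low-threshold mechanoreceptors (C-LTMRs; Th, Tafa4, Slc17a8), neurons that respond to gentle stroking of the skin, scored highest in 7 neurons, 3 of replicate 1 and 4 of replicate 2. Piezo2 ranged from 178 to 591 UMIs in them, with a median of 332, and no neuron of the 7 held a Trpv1 or Trpm8 UMI. Trpm3 ranged from 0 to 4 UMIs, and the 3 neurons of the dataset without Trpm3 were all among these 7, although their depths of 130671 to 311121 UMIs were above the median. Trpa1 was present in all 7, at 2 to 16 UMIs, and Asic1 in all 7, at 1 to 17 UMIs. Low Trpm3 thus went with high Piezo2 in these 7 neurons. Trpm3 had a median of 56 UMIs in the 43 neurons with 1 to 99 Piezo2 UMIs and of 41 UMIs in the 39 neurons without Piezo2. These counts are not scaled to depth. The neurons without Piezo2 were shallower, at a median of 79942 UMIs against 130216 in those with it. Across all neurons, these 7 included, the correlation of Trpm3 with Piezo2 was −0.491 and −0.539 in the replicates.

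**Figure D3:**
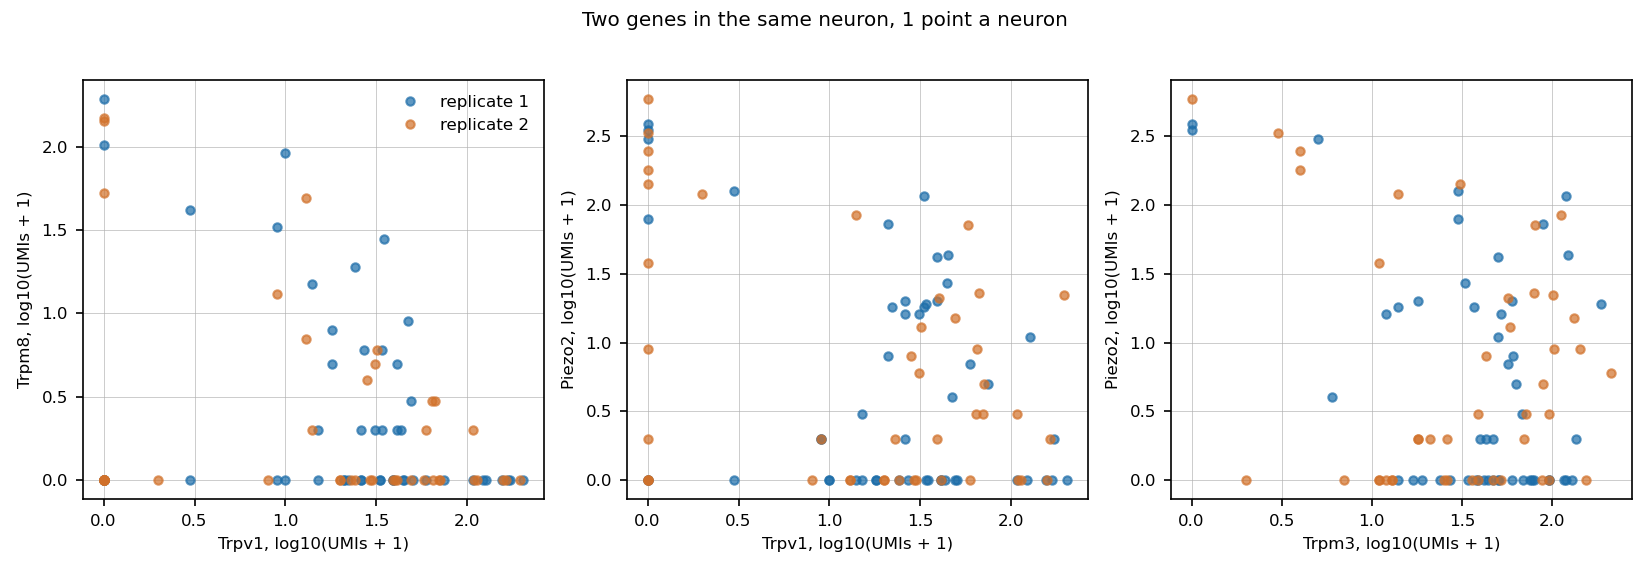
UMIs of 3 pairs of members in each neuron of both replicates, on log10(UMIs + 1) axes: Trpv1 against Trpm8, Trpv1 against Piezo2, and Trpm3 against Piezo2. Counts are not scaled to depth. The 4 neurons with at least 100 Trpm8 UMIs lie at 0 Trpv1 UMIs, and the 7 neurons with the most Piezo2 lie at 0 to 4 Trpm3 UMIs.

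Trpm8 was found at many UMIs in a few neurons and at few UMIs in many. The groups below rest on counts not scaled to depth. A neuron of 67356 UMIs held 91 Trpm8 and 9 Trpv1 UMIs, for example. Another, of 125705 UMIs, held 102 Trpm8 UMIs. The absence of Trpv1 in the 4 neurons named next therefore does not hold for all neurons of high Trpm8 level per UMI. In 4 neurons it reached 193, 102, 142 and 147 UMIs, and all 4 held 0 UMIs of Trpv1, Trpa1, Piezo2, P2rx3 and Asic3, with Trpm3 at 26 to 51, Asic1 at 3 to 31 and Foxp2, a transcription factor that served as the marker of cold-sensing neurons, at 40 to 74 UMIs. In 9 neurons with Trpm8 between 10 and 99, Trpv1 was present in 8, at a median of 9 and up to 34 UMIs, and Trpa1 and P2rx3 were at 0. In 22 neurons with 1 to 9 UMIs of Trpm8, Trpv1 was present in all 22, at 12 to 106 UMIs, and Calca had a median of 1093 UMIs. Co-detection of the heat and the cold receptor in 30 of the 93 neurons (32.3%; 17.2% after thinning to 20000 UMIs) was thus made mostly of neurons with few Trpm8 UMIs. The neurons with 0 Trpv1 and many Trpm8 UMIs were found in both replicates.

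Trpv1 itself was highest mostly in neurons with little or no CGRP transcript. In 13 neurons it reached 106 to 201 UMIs, and of these 9 held at most 1 UMI of Calca. These 9 held 108 to 201 UMIs of Trpv1, 11 to 64 of Ntrk3, the neurotrophin-3 receptor, and 2 to 23 of Foxp2, while Trpa1, Trpm8, P2rx3 and Asic3 were at 0 in all 9 and Asic1 was present in 8. Among all 93 neurons, 17 held no Trpv1 UMI, of which 7 were the C-LTMR-list neurons, 5 scored highest for Foxp2, 4 for the non-peptidergic list (Cd55, Lpar3, Gfra2, Mrgprx1) and 1 for the pruriceptor list (Sst, Nppb, Il31ra). The neurons without Trpv1 were not shallower, with a median of 142678 UMIs against 109938.5 in those with it. Absence of Trpv1 therefore did not go with low depth.

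Mrgprd was confined to 4 neurons among the 93, with 33, 12, 50 and 9 UMIs. All 4 also held Trpa1, at 22, 16, 8 and 7 UMIs, P2rx3, at 10, 23, 25 and 5 UMIs, Piezo2, at 78, 125, 141 and 37 UMIs, and Trpm3, at 29, 29, 30 and 10 UMIs. Trpv1 was at 0, 2, 0 and 0 UMIs in them, and Asic1, Asic3 and Trpm8 were at 0. A common combination was thus seen in each Mrgprd neuron, in both replicates. Across all neurons Trpa1 and P2rx3 were found together in 20 (21.5%; 6.45% after thinning), and 22 of the 27 neurons with Trpa1 also held Piezo2. The neurons without Trpa1 were shallower, at a median of 94530 UMIs against 171134, and after thinning to 20000 UMIs Trpa1 was detected in 20.4% of the neurons.

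**Figure D4:**
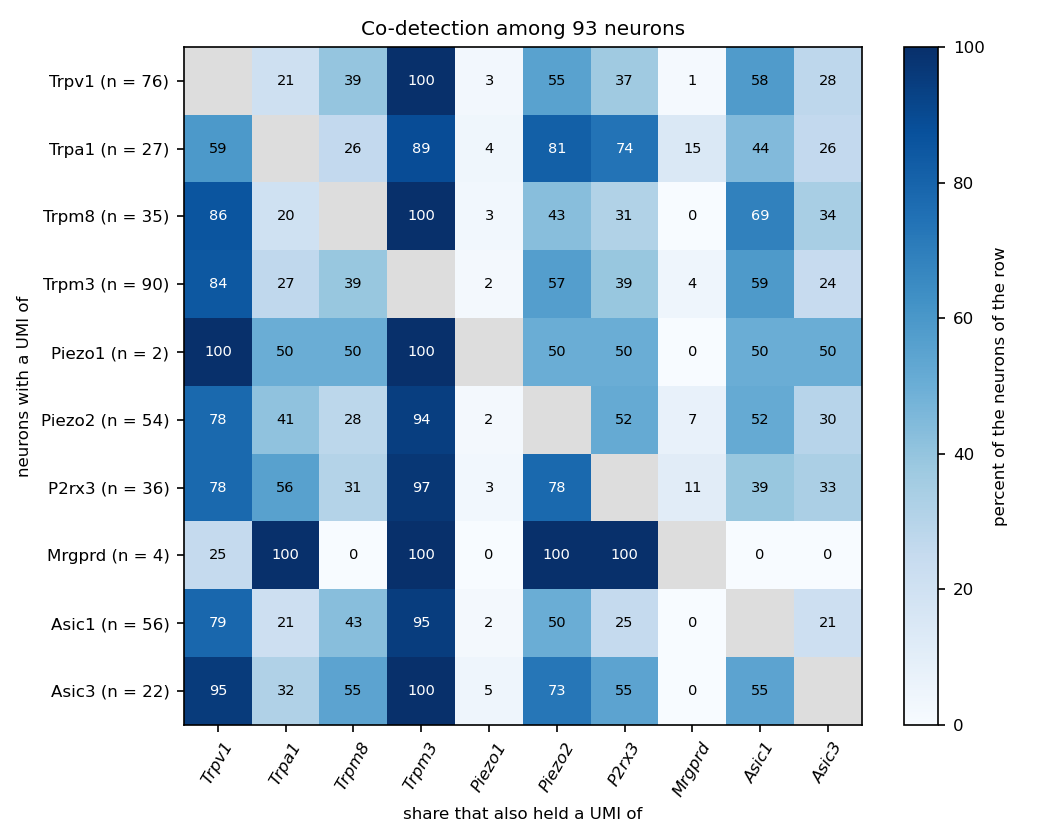
Percent of the neurons with a UMI of the row gene that also held the column gene, over the 93 neurons of both replicates, with counts from deposited depth. Trpm3 was detected in 90 of the 93 neurons, among them every neuron with Trpv1, Trpm8, Asic3, Mrgprd or Piezo1 (2 neurons). By contrast, 0 of the 4 Mrgprd neurons held Trpm8, Asic1 or Asic3.

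The acid-sensing subunits overlapped in part. Asic1 and Asic3 were found together in 12 neurons (12.9%; 3.23% after thinning). Asic1 was present in 22 of the 26 neurons that scored highest for Foxp2, but in 12 of the 34 of the peptidergic list. It was present in all 8 that scored highest for the list of myelinated neurons (Nefh, Pvalb, Ntrk2, Ntrk3, Spp1). Of these 8, only 1 held Pvalb, while Nefh had a median of 11 UMIs and Trpv1 of 134 UMIs. The score therefore does not show that these 8 neurons were myelinated. In the 12 neurons with at least 5 Asic3 UMIs, 7 held at least 900 UMIs of Calca, 4 held at least 30 of Foxp2, and the remaining neuron held 397 of Pvalb, a calcium-binding protein of proprioceptors, with Asic3 at 11, Asic1 at 32 and Piezo2 at 119 UMIs. Asic3 was therefore seen in neurons of several kinds.

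Outside neurons the question was which other cell types carried these transcripts. Against the mean of the other non-neuronal types, Trpm3 was higher in SGCs and MSCs, Piezo1 in endothelial cells, macrophages and fibroblasts, and Piezo2 in fibroblasts and endothelial cells. The members were called higher 3 times and lower 2 times in SGCs, where 30.2% and 24.7% of the 18155 genes were called higher and lower, respectively. The calls were 1 and 2 in MSCs (25.4% and 24.3% of all genes), 2 and 1 in NMSCs (16.5% and 16.5%), 2 and 1 in endothelial cells (23.7% and 24%), 2 and 1 in fibroblasts (26.1% and 20.4%), 0 and 2 in mural cells (20.3% and 17.9%), and 1 and 1 in macrophages (26.7% and 21.4%). Of the 10 members 0 to 3 were thus called higher in a type, against 16.5% to 30.2% of all genes, and the calls say nothing of the members as a set.

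Trpm3 was highest in SGCs and MSCs. The order was SGCs (893 and 888 CPM), MSCs (547 and 522), neurons (476 and 443), fibroblasts (243 and 343), NMSCs (199 and 265), macrophages (209 and 254), mural cells (120 and 104) and endothelial cells (67.6 and 47.8), and among neighbours in this order the ranges overlapped only between fibroblasts and NMSCs and between NMSCs and macrophages. In SGCs the log2 fold change was 2.29 ± 0.10 (SE; adjusted p = 2.70e-11, edgeR) and in MSCs 1.38 ± 0.11 (SE; adjusted p = 3.12e-08, edgeR). Trpm3 was detected in 96.9% and 97.4% of SGCs, and in 90.5% and 90.4% after thinning to 5000 UMIs, against 82.0% and 83.7% of neurons thinned in the same way. SGC clusters differed among themselves: the clusters numbered 0 and 1 held 1221 and 1186 CPM and 1094 and 1091 CPM in the replicates, and those numbered 2 and 4 held 518 and 524 CPM and 530 and 569 CPM. Trpm3 is a long gene, 856 kb on the plus strand of chromosome 19 (chr19:22139046-22995410, GRCm38), and whether intronic reads were counted is not given in the sources used here.

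In mural cells, endothelial cells, macrophages and fibroblasts, much of the Trpm3 came from a minority of cells that also carried more of the SGC marker Fabp7. In mural cells 18 and 11 cells held at least 10 Trpm3 UMIs, of which 16 and 10 were called doublets, and Fabp7 stood at 4010 and 5134 CPM in these cells against 140 and 419 CPM in mural cells without Trpm3. Without the called doublets, mural cells fell from 120 and 104 CPM to 24.5 and 29.6 CPM, and endothelial cells from 67.6 and 47.8 to 24.8 and 21.3 CPM. SGCs stood at 893 and 888 CPM without doublets, but only 8 of 4286 and 4 of 4077 SGCs were left out, so their level could hardly move. In macrophages, 28 and 31 cells held at least 10 Trpm3 UMIs, of which 8 and 7 were called doublets, with Fabp7 at 5175 and 7264 CPM against 361 and 221 CPM in macrophages without Trpm3. Without doublets macrophages stood at 155 and 233 CPM and fibroblasts at 201 and 302 CPM. Fibroblasts with at least 10 Trpm3 UMIs numbered 50 and 76, of which 13 and 27 were called doublets. Fabp7 stood at 2025 and 2608 CPM in them, against 102 and 191 CPM in fibroblasts without Trpm3. In replicate 2 a single fibroblast held 669 of the 3406 Trpm3 UMIs of fibroblasts, where the highest SGC held 130. In these 4 types Fabp7 was thus higher in cells with at least 10 Trpm3 UMIs than in cells without Trpm3.

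**Figure D5:**
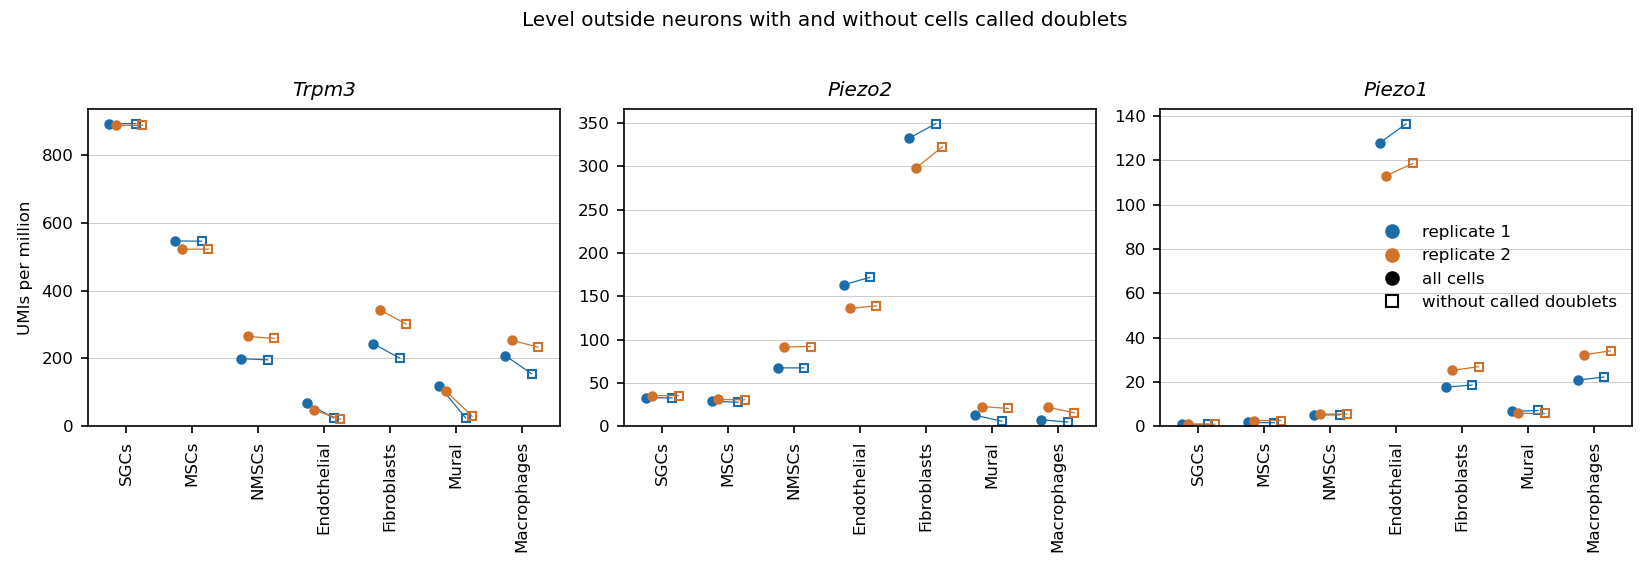
Level of Trpm3, Piezo2 and Piezo1 (CPM) in each non-neuronal type of both replicates, with all cells and without the cells called doublets. Trpm3 in mural cells drops from 120 and 104 to 24.5 and 29.6 CPM, whereas Piezo2 in fibroblasts and Piezo1 in endothelial cells stay at or above their values with all cells.

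Piezo1 was highest in endothelial cells, at 128 and 113 CPM (log2 fold change 4.29 ± 0.14, SE; adjusted p = 2.44e-13, edgeR). Macrophages held 20.8 and 32.2 CPM and fibroblasts 17.6 and 25.2 CPM, ranges that overlapped, and mural cells, NMSCs, MSCs and SGCs held 6.68 CPM or less. Both macrophages (2.01 ± 0.20, SE; adjusted p = 2.82e-07, edgeR) and fibroblasts (1.44 ± 0.17, SE; adjusted p = 2.07e-06, edgeR) were above the mean of the other types, and SGCs were lower by 3.75 on the log2 scale (adjusted p = 3.61e-10, edgeR). Piezo1 was detected in 78.7% and 68.2% of endothelial cells, and in 45.3% and 37.8% after thinning to 5000 UMIs. Empty droplets would give 1.45 of its 388 and 2.27 of its 417 endothelial UMIs, and SGCs, which serve as a type with little Piezo1, showed it in 0.589% and 0.644% of cells at the same depth. Piezo1 thus stood well above the background in endothelial cells.

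Piezo2 was highest, outside neurons, in fibroblasts, with 333 and 298 CPM (log2 fold change 2.99 ± 0.14, SE; adjusted p = 3.34e-11, edgeR), and then in endothelial cells, with 163 and 136 CPM (1.70 ± 0.17, SE; adjusted p = 2.56e-07, edgeR). It was detected in 77.8% and 76.1% of fibroblasts, and in 56.8% and 56.2% after thinning to 5000 UMIs. The fibroblast clusters differed, with 467 and 428 CPM in the cluster numbered 10 and 184 and 187 CPM in that numbered 13. NMSCs followed, with 67.4 and 91.5 CPM, a call that DESeq2 did not make (adjusted p = 0.0593). SGCs stood at 32.8 and 35.3 CPM and MSCs at 29.1 and 30.9 CPM, below the 47.5 and 74.0 CPM of empty droplets. Their UMIs were nevertheless above those expected from empty droplets, with 2085 and 2246 against 75.4 and 118 in SGCs and 241 and 290 against 18.8 and 33.4 in MSCs. Piezo1 and Piezo2 were found together in 81 of 174 and 69 of 192 endothelial cells, and Piezo2 was present in 59.1% and 52.7% of endothelial cells with Piezo1 against 48.6% and 42.6% of those without. The cells with both were deeper, at medians of 19951 and 22223 UMIs, than those with neither, at 6411 and 9129 UMIs. Both mechanically gated channels were therefore seen in the same endothelial cells, with depth moving alongside.

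The remaining calls outside neurons were of low levels. Trpv1 was called higher in SGCs, at 2.58 and 2.74 CPM, and in NMSCs, at 5.72 and 4.96 CPM, and lower in fibroblasts, at 0.995 and 0.706 CPM, all below the 33.9 and 30.6 CPM of empty droplets. In SGCs the 164 and 174 UMIs exceeded the 53.9 and 48.9 expected from empty droplets. Per 1000 UMIs of the 6 neuronal genes, SGCs held 39.8 and 29.9 Trpv1 UMIs, neurons 30.9 and 29.3, and empty droplets 20.3 and 9.35. Whether the SGCs with Trpv1 were those with neuronal RNA was not tested. With cells gated on marker pairs the SGC call was lost (0.59, adjusted p = 0.108, edgeR). Asic1 was called higher in SGCs with 59 UMIs in each replicate, or 0.928 CPM in both (3.08 ± 0.59, SE; adjusted p = 0.000403, edgeR). Per 1000 UMIs of the neuronal genes, SGCs held 14.3 and 10.1 Asic1 UMIs, and neurons held 1.95 and 2.17. The ratio to neuronal RNA was thus several times higher in SGCs than in neurons for Asic1 and about equal in both types for Trpv1 in replicate 2.

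The 10 members are part of a larger set of receptors and channels of sensory endings, which a list of 51 further genes represented. Of these, 42 passed the filter, 27 were higher in neurons, 8 were lower and 7 were not called (edgeR), with a median log2 fold change of 2.38 against −0.04 over all genes. The largest changes among the higher genes were those of Asic2, Trpm5, P2rx2 and Tmem63c. Asic2, a further proton-gated channel subunit, stood at 754 and 1132 CPM in neurons, in 49 of 50 and 39 of 43 of them, against 1.46 and 1.96 CPM in the other cells (8.59 ± 0.18, SE; adjusted p = 4.81e-16). P2rx2, which forms heteromers with P2rx3, stood at 10.4 and 5.18 CPM, in 16 and 15 neurons (7.54; adjusted p = 9.89e-08). P2rx2 and Trpm5 were each at 0 UMIs in 4 types, so the sizes of their changes are not exact. Tmem63c, of a family of osmosensitive channels, stood at 32.8 and 32.1 CPM in 46 and 35 neurons (7.44; adjusted p = 2.13e-12). Trpm5 rested on 1 neuron of replicate 2, with 0 and 16.7 CPM in the replicates, although it passed the test (adjusted p = 0.000172). Asic2 and Tmem63c were thus widespread in neurons, whereas Trpm5 was the property of a single cell.

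Among the 8 genes lower in neurons, the largest changes were those of P2rx7, Mrgprf, Tmem63a and Pkd2. P2rx7, the low-affinity ATP receptor, was lower by 3.99 on the log2 scale (adjusted p = 1.34e-11, edgeR), with 2.77 and 5.18 CPM in neurons and 182 and 196 CPM in MSCs, its highest type. Mrgprf, an orphan receptor related to Mrgprd, was lower by 3.79 (adjusted p = 0.00122), with 0.347 and 0 CPM in neurons and 34.0 and 40.6 CPM in NMSCs. Tmem63a was highest in endothelial cells, at 28.0 and 29.6 CPM (−1.73; adjusted p = 3.11e-07), and Pkd2, a polycystin of the TRP superfamily, in fibroblasts, at 93.9 and 94.5 CPM (−1.65; adjusted p = 5.67e-10). Members of the same families thus lay on both sides: P2rx3 and P2rx2 in neurons and P2rx7 in MSCs, Mrgprd in neurons and Mrgprf in NMSCs.

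The genes whose levels across neurons were most like those of a member were ranked by Pearson correlation of log-transformed UMIs per 10000, averaged over the 50 neurons of replicate 1 and the 43 of replicate 2, among 13932 genes. Neurons of a replicate share a library, and depth and class contribute to such values, which are given as a description. For Trpm8 the leading genes were Cpne5 (mean r 0.889), Hjurp (0.838) and Hpca (0.789). For Trpv1 they were Thsd7b (0.72), Celf4 (0.673) and Kcnmb2 (0.669), and for Trpm3 Zbtb20 (0.783), Cacna1c (0.744) and Oprm1 (0.681), the μ-opioid receptor. Piezo2 went with Casz1 (0.776), Wipf3 (0.736) and Paqr5 (0.735), and Trpa1 with Tspan12 (0.705), Htr4 (0.679) and Cd55 (0.671). P2rx3 went with Gm15675 (0.715), Cd55 (0.704), which belongs to the non-peptidergic list, and Tmem233 (0.692). Asic1 went with Scn1a (0.709), a sodium channel gene, Cntnap1 (0.692) and Mcam (0.659), and Asic3 with Sez6 (0.792), Disp3 (0.79) and Bdkrb2 (0.765), the bradykinin receptor. Trpa1 was the member whose replicates differed most here, with correlations to Tspan12 of 0.515 and 0.895.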

How the data were processed

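The authors aligned the reads and deposited UMI counts per gene and barcode, which the submitters' notes credit to Cell Ranger on mm10, without normalization or selection of cells. The version of the annotation and the use of intronic reads are not given in the sources used here. Cells were barcodes above a cutoff of 4187 and 4117 UMIs in the 2 replicates. The study removes cells of very high UMI counts, a step that would have taken most neurons (the rule of the median plus 5 median absolute deviations came to 44272 UMIs), so it was applied here to the other types and not to neurons. Other types were named from clusters (scanpy 1.11.5, leidenalg 0.10.2, igraph 0.11.9, 2000 variable genes without the members, 30 components, 20 neighbours, resolution 0.8) by marker genes, with naming cutoffs set after the data were seen. Doublets were called with Scrublet: 1 cluster of them was left out, and leaving out all called cells was an alternative. Empty droplets were the barcodes ranked 45000 to 90000, and their RNA made up an estimated 2.50% to 19.5% of the summed profiles. Counts were summed per type and replicate and tested with edgeR 4.0.16 (TMM, quasi-likelihood, R 4.3.3) over genes that reached 10 counts in 2 or more profiles, with Benjamini-Hochberg adjustment and a threshold of 0.05, after the script had been tested on simulated data. DESeq2 1.42.0 was an alternative. Profiles of 1 number come from 1 library, and the correlation of their deviations over 28 pairs of types had a median of 0.0411 (0.0098 to 0.1244). Intervals are exact binomial intervals at 95%, and a count of 0 is read against a floor of 3 counts. The members and lists were chosen with earlier results of these data known. Named genes were all 10 members, the 4 largest log2 fold changes in each direction among called genes of the list of 51, and the 3 best correlated genes of each member with a UMI in at least 10 neurons. 1 marker of the neuron lists is not reported here. Gene positions are from GENCODE on GRCm38 and promoters from RefSeq (GRCm38.p6, 7 of 10 members with an entry). Other tools were Python 3.11.15, numpy 2.4.6, scipy 1.17.1 and pandas 2.3.3.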

Additional observations from a re-analysis of the deposited data

How the results depend on the processing

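The 9 members higher and 1 lower in neurons kept these counts under DESeq2, no filter on low counts, a neuronal score of at least 80, neurons of at least 10000 or 30000 UMIs, subtraction of the RNA of empty droplets, cells gated on marker pairs, removal of called doublets and a calling of cells at 1000 UMIs. With the other cells summed into 1 profile, 2 members were lower, since Trpm3 turned to −0.67 (adjusted p = 0.000491, edgeR). In the neurons with Fabp7 below the median 8 members were higher, since Mrgprd failed the filter there. With the replicate number as a block, 9 members remained higher and 1 lower in neurons and 11 and 10 calls were made outside them, and no call changed. Without 1 replicate there is 1 profile per type and no test: Trpv1 in fibroblasts then ran from −1.62 (without replicate 1) to 0.02 (without replicate 2). In neurons Piezo1 then ran from −3.57 to −9.89 and Trpv1 from 7.47 to 8.53, and no member turned in neurons when a replicate was left out. The 11 higher calls outside neurons came to between 11 and 15, and the 10 lower calls to between 7 and 10. The lost calls among them were Trpv1 and Piezo2 in SGCs (adjusted p = 0.108 with gated cells, and 0.21 with subtraction and 0.0922 without doublets, respectively), Piezo1 in NMSCs (0.0887, gated), Piezo2 in NMSCs (0.0593, DESeq2), Trpv1 in fibroblasts (0.272 gated, 1.0 with subtraction, 0.0549 without doublets) and Trpm3 in mural cells (0.0562 with subtraction); the cause was not tested. The mean number of members per neuron, 4.32, moved to 3.13 when each neuron was thinned to 20000 UMIs and to 3.70 when at least 2 UMIs were required, and ran from 4.12 to 4.50 with 1 replicate left out. P2rx3 moved most with depth in proportion among the members detected in at least 10 neurons, from 38.7% of neurons to 11.8% after thinning, whereas Mrgprd stayed at 4.3%.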

Other observations

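Hjurp, a centromere protein gene known from dividing cells, was the second best correlate of Trpm8 across neurons (r 0.867 in replicate 1 and 0.808 in replicate 2). The genes lie head to head on chromosome 1, with Hjurp on the minus strand (chr1:88262471-88277633, GRCm38) and a start 27 bases from that of Trpm8 on the plus strand (chr1:88277661-88389293). Hjurp counted 40 to 171 UMIs in the 4 neurons with at least 100 Trpm8 UMIs, 0 to 42 (median 10) in the 9 neurons with 10 to 99, 0 to 10 (median 3) in the 22 neurons with 1 to 9, and 0 to 8 (median 2) in the 58 neurons without Trpm8. Outside neurons the genes did not go together: endothelial cells held 66.0 and 73.3 CPM of Hjurp, near the 72.3 and 45.2 CPM of neurons, with Trpm8 at 0.989 and 0.271 CPM. The RefSeq start of Trpm8 lies 29074 bases from the GENCODE start used here.

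A cluster of 50 cells (18 and 32 per replicate) that took no name, with 25.4% of its UMIs from mitochondrial genes, held Trpv1 at 102 and 357 CPM, Trpm8 at 434 and 344 CPM, Trpm3 at 702 and 903 CPM and Piezo2 at 137 and 396 CPM. A further 8 and 10 barcodes met the neuronal score below 20000 UMIs, with Trpv1 at 106 and 279 CPM, Trpm3 at 332 and 175 CPM and Piezo2 at 385 and 10.3 CPM. Neither set entered a comparison or the shares of UMIs in typed cells.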
